A study of Mus musculus with 12 samples.

Results

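The interaction of anti-PD1 and SN-38 is the part of the combined response that the 2 single responses do not add up to. On the log2 scale it is the change from SN-38 to the combination minus the change from vehicle to anti-PD1, so that a value of 0 means that the 2 agents together moved a gene by the sum of their single changes. It was computed for every gene with enough counts, 16833 of 54446 gene identifiers, from all 12 tumours of the series, 3 in each of 4 groups. The tumours were grown from Sq-1979 cells, a mouse squamous carcinoma line, which were injected with Matrigel under the skin of the back of male C3H/HeN mice aged 6 weeks. One group received vehicle, another a rat antibody against PD-1, another SN-38 and the last both agents. The sources used here give no doses, treatment times or hour of collection. The labels do not say that each tumour came from its own mouse, so the spread on which the p-values rest is that of 12 samples and can be technical in part. The series title states the aim, which was to ask whether SN-38 raises the efficacy of the antibody.

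PD-1 is an inhibitory receptor of activated T cells, and antibodies against it release T cells from that inhibition. Interferons made by T cells and by cells that sense nucleic acid then induce genes of antiviral defence and antigen presentation. SN-38 is the active metabolite of irinotecan. It traps topoisomerase I on DNA, which gives DNA breaks during replication, and cells with such breaks slow their progress through S phase and G2. An antibody that acts on immune cells and a drug that acts on dividing cells can therefore meet in the same tumour transcripts, and a 2 by 2 design such as this one measures how far their changes add.

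The mRNA of each tumour was sequenced as a whole, with 21088288 to 28512141 counts per tumour. Squamous markers were high in all 12 tumours, with Krt5 at 4411 to 8113 CPM (counts scaled to the size of each library) and Trp63 at 410 to 537 CPM. Defining B-cell markers were near 0, Ms4a1 being at 0 in 6 tumours. Some tumours stood apart from their group. Marker scores are means of log2 CPM over a list. The T-cell score was 3.98 in the third anti-PD1 tumour and 4.18 in the third combination tumour, against 2.47 to 3.22 in the other 10. The neutrophil score was 4.09 in the first SN-38 tumour and 3.88 in the second combination tumour, against 0.39 to 2.62 in the other 10. For lists whose median changed sign without 1 of these tumours or a pair of them, a value or range with tumours left out is given beside it. Not every such value is given. In whole tumours, fewer cells of a type and less RNA per cell cannot be told apart.

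No gene departed from the sum of the single changes past the adjusted threshold. In edgeR's quasi-likelihood test 0 of 16833 genes (0%) had an adjusted p under 0.05, and the lowest adjusted p was 0.313. At an unadjusted p under 0.05 there were 1284 genes (7.63%), of which 573 (3.4%) lay above the sum and 711 (4.22%) below it. limma voom also gave 0 calls, with 1269 genes at an unadjusted p under 0.05. DESeq2, which had 1384 such genes and gave no adjusted p for 4247, made 16 calls (0.0951%), 15 below the sum and 1 above it, with adjusted p-values from 2.95e-05 to 0.0457. Over all genes 48.2% of the interactions were above 0 and 51.8% below, with a median of -0.014. These shares are the background for every count below. All values named for single genes are therefore estimates with their errors, not calls, unless DESeq2 is named.

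The departures had a common shape. Among the 573 genes above the sum, 515 had lower means with each agent alone than with vehicle. In 393 of those 515 the combination was within 0.25 log2 of vehicle, in 84 it was further above vehicle, and in 38 it stayed lower. The median change over the 573 genes was -0.29 with anti-PD1, -0.31 under SN-38 and 0.041 with both. Among the 711 genes below the sum, 682 were higher with each agent alone. The combination was within 0.25 log2 of vehicle in 480 of those 682, lower in 53 and still higher in 149. Their median changes were 0.25, 0.30 and 0.05. Single changes of this sign enlarge the interaction by construction, since both are subtracted from the combined change and both use the same vehicle tumours, so the shape is a description of the selected genes and not a test. In words, most of these genes stood on one side of vehicle with either agent alone and near the vehicle level with both.

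Gclc, Pik3r1 and Cblb had the smallest p-values below the sum. Gclc encodes the catalytic subunit of the enzyme that starts glutathione synthesis, and lies at chr9:77754535-77794485 in GRCm38. Its level was 65.1, 58.9 and 59.8 CPM in the vehicle tumours, 107, 85.3 and 74.4 under the antibody, 114, 96.6 and 94.3 under SN-38 and 65.1, 69.1 and 61.99 under both agents. Gclc was above every vehicle tumour with either agent alone, and with both it overlapped the vehicle range, below every tumour of either single group. The additive level, which is the vehicle level times both single fold changes, was 146 CPM. The log2 interaction was -1.18 ± 0.18 (SE) with an adjusted p of 0.313 in edgeR's quasi-likelihood test and 4.12e-05 in DESeq2, and all 3 combination tumours lay below the additive level. Cth, which makes cysteine for the same product, was one of the genes above the sum described below.

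Pik3r1, at chr13:101680563-101768217, encodes p85-alpha, the regulatory subunit that stabilises and restrains the catalytic subunits of PI3-kinase. It stood at 244, 185 and 243 CPM in the vehicle tumours, 317, 322 and 263 under the antibody, 281, 302 and 258 under SN-38 and 168, 180.1 and 172 under both agents. The combination was below all 9 other tumours, whereas each single agent was above all vehicle tumours. Its interaction was -1.11 ± 0.17 against an additive level of 376 CPM, with an adjusted p of 0.313 in edgeR's test and 2.95e-05 in DESeq2. Cblb, at chr16:52031225-52208048, encodes a ubiquitin ligase that raises the threshold for T-cell activation. Its values were 88.5, 85.5 and 68.02 CPM in the vehicle tumours, 171, 144 and 136 under the antibody, 126, 149 and 127 under SN-38 and 119, 92.4 and 109.9 under both agents. Here the combination stayed above vehicle and below both single groups, with no overlap among these comparisons. The Cblb interaction was -1.22 ± 0.19 against an additive level of 249 CPM, with an adjusted p of 0.313 in edgeR's test and 4.60e-05 in DESeq2.

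Klf13 took another course. This zinc-finger transcription factor stood at 285, 257 and 268 CPM in the vehicle tumours, 358, 343 and 296 under the antibody, 210.4, 219.7 and 239.7 under SN-38 and 186, 127 and 159 under both agents. Anti-PD1 alone was above vehicle and SN-38 alone below it, with no overlap in either case, and the combination was lower still and below all other tumours. The interaction was -0.81 ± 0.19, so the antibody went with a higher level in the absence of SN-38 and with a lower level in its presence. Mnt, a Max-binding repressor that competes with Myc, was at 36.4, 35.5 and 33.6 CPM in the vehicle tumours, 43.3, 45.7 and 43.1 under the antibody, 53.03, 56.2 and 53.7 under SN-38 and 50.8, 45.99 and 50.6 under both agents. Its combination level lay between the 2 single levels and its interaction was -0.47 ± 0.097. Each group of Mnt was narrow, and neither single group overlapped the combination.

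The other genes of smallest p below the sum encode proteins of several kinds. Kmt2c, a histone H3 lysine 4 methyltransferase, was at 66.5, 64.04 and 57.4 CPM in the vehicle tumours, 121, 87.4 and 85.5 under the antibody, 100.2, 91.9 and 87.5 under SN-38 and 82.9, 72.3 and 65.3 under both agents, an interaction of -0.99 ± 0.19. Nbeal1, a BEACH-domain protein, had means of 49.3, 70.2, 68.1 and 53.4 CPM in the order vehicle, anti-PD1, SN-38 and both, and an interaction of -0.86 ± 0.18. Lyst, the lysosomal trafficking regulator mutated in Chediak-Higashi syndrome, had an interaction of -0.80 ± 0.18. For Med13l, part of the kinase module of Mediator, all 3 treated groups were alike at 131 to 155 CPM, above 113, 108 and 101 CPM in vehicle, which gives an interaction of -0.51 ± 0.11. Atrn, which encodes attractin, was at -0.56 ± 0.10, Wdfy2, an endosomal protein, at -0.72 ± 0.15, and Sirt2, a deacetylase of tubulin, at -0.43 ± 0.099. Of these 12 genes, 11 were among the 15 that DESeq2 called below the sum, Lyst being the exception. The remaining DESeq2 calls were Gm37494 (-0.52) and Zswim6 (-0.52), which the annotation used does not type as protein-coding, Zmym4 (-0.37) and Itgb8 (-3.93). These 4 were named after their values were seen. Itgb8 was low, at a mean log2 CPM of 1.29, and its SE was 0.97. Its adjusted p was 0.0457 in DESeq2 and 0.597 in edgeR's test.

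**Figure D1:**
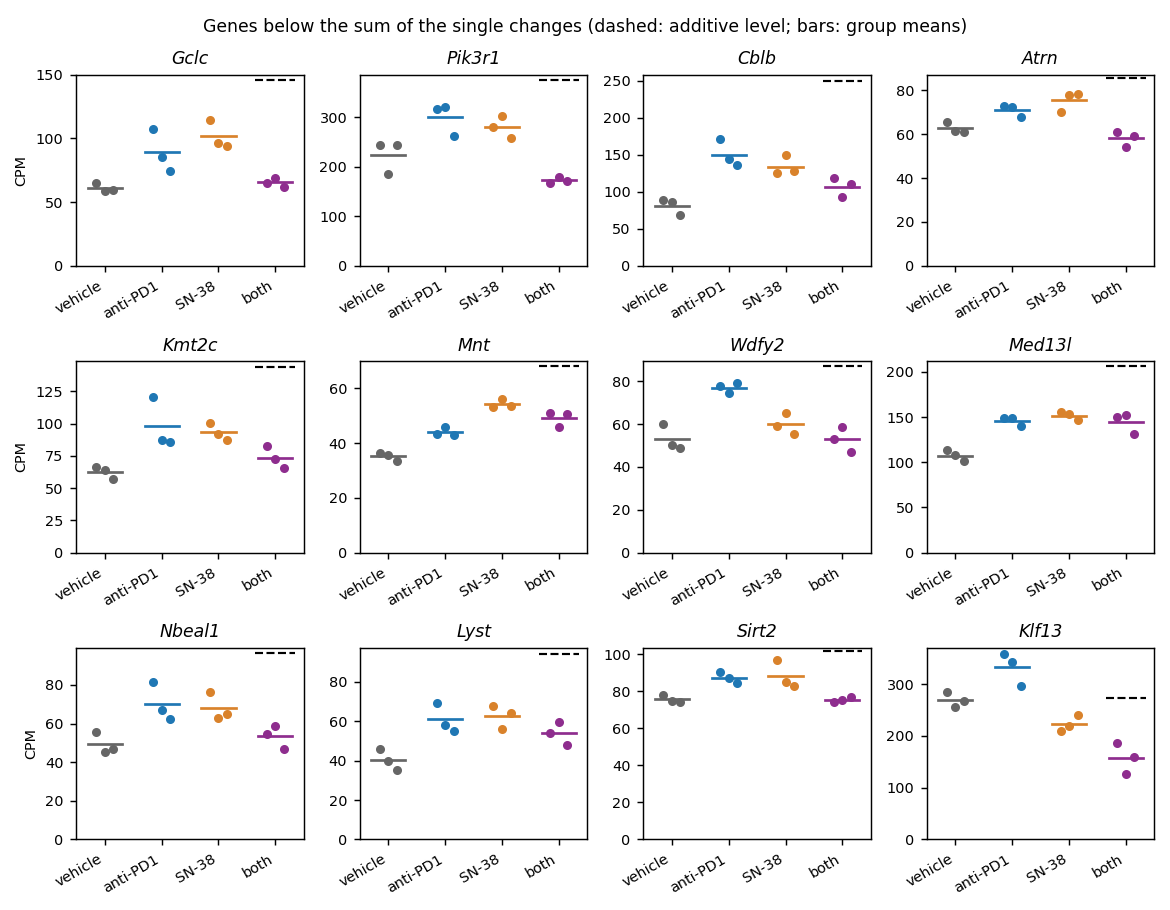
CPM in each tumour (points, 3 per group) for the 12 protein-coding genes of smallest p below the sum, with group means (solid bars) and the additive level (dashed bar over the combination). In all 12 panels the 3 combination tumours lie under the dashed bar, and for Gclc, Pik3r1, Cblb, Atrn, Kmt2c, Nbeal1, Sirt2 and Klf13 they also lie under every tumour given a single agent. The place under the bar follows largely from the choice of genes by small p.

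Above the sum, Mlkl had the smallest p. MLKL is the protein that breaks the plasma membrane in necroptosis, and its gene lies at chr8:111311797-111338177. Its level was 63.7, 62.3 and 60.6 CPM in the vehicle tumours, 61.6, 53.6 and 70.4 under the antibody, 45.7, 47.1 and 51.3 under SN-38 and 67.95, 79.5 and 93.6 under both agents. SN-38 alone was below every vehicle tumour, and the combination was above every tumour given vehicle or SN-38. The interaction was 0.75 ± 0.17 against an additive level of 47.5 CPM (adjusted p 0.597 in edgeR's test). The third anti-PD1 and the third combination tumours, the highest in Mlkl of their groups, were also those of high T-cell score. Without that pair the Mlkl interaction was 0.73.

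Cth, the cystathionine gamma-lyase that makes cysteine, was at 11.1, 13.8 and 12.5 CPM in the vehicle tumours, 8.28, 9.71 and 9.71 under the antibody, 9.65, 10.2 and 12.8 under SN-38 and 14.5, 14.9 and 13.8 under both agents. All 3 combination tumours were above all 6 tumours of the single groups. Its interaction of 0.83 ± 0.20 was the one call above the sum in DESeq2 (adjusted p 0.0457). Gtse1, a G2 and S phase protein that holds down p53, was at 31.4, 38.3 and 31.6 CPM in the vehicle tumours, 21.9, 26.7 and 25.4 under the antibody, 22.4, 24.7 and 31.4 under SN-38 and 39.7, 39.3 and 29.98 under both agents, an interaction of 0.93 ± 0.22. Both agents alone had lower Gtse1 means than vehicle, and the combination overlapped vehicle.

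Several genes were higher in the combination than in any other group. Nrp2, a co-receptor for semaphorins and VEGF-C, was at 174, 178 and 161 CPM in the vehicle tumours, 137, 154 and 159 under the antibody, 184, 158 and 161 under SN-38 and 214, 229 and 198 under both agents, an interaction of 0.54 ± 0.13. Tenm4, a teneurin, was at 22.7, 19.7 and 19.9 CPM in the vehicle tumours, 16.98, 18.2 and 18.4 under the antibody, 24.1, 22.1 and 23.99 under SN-38 and 35.2, 43.9 and 27.5 under both agents, an interaction of 0.82 ± 0.20. The glycosyltransferase gene Glt1d1 was at 6.93, 7.38 and 6.597 CPM in the vehicle tumours, 5.56, 5.87 and 6.15 under the antibody, 7.14, 7.57 and 7.91 under SN-38 and 11.6, 15.04 and 9.57 under both agents, an interaction of 0.93 ± 0.23. In each of these 3 genes every combination tumour was above all 9 others, while anti-PD1 alone was below every vehicle tumour and SN-38 alone overlapped vehicle. Tenm4 and Glt1d1 were highest in the second combination tumour, which had the high neutrophil score, and without it and the first SN-38 tumour their interactions were 0.66 and 0.70.

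The rest of the 12 genes above the sum were low with one or both agents alone. Susd2, a sushi-domain membrane protein, was at 68.8, 50.9 and 69.7 CPM in the vehicle tumours, 34.7, 45.01 and 47.6 under the antibody, 60.7, 44.3 and 37.2 under SN-38 and 66.3, 101 and 67.6 under both agents, an interaction of 1.29 ± 0.31. Bdkrb2, the bradykinin B2 receptor, had an interaction of 1.34 ± 0.33 at levels of 2.33 to 8.33 CPM. Glrp1 had the widest departure of the 12, 1.77 ± 0.44, at 2.43 to 12.9 CPM. Eme1, a partner of the Mus81 nuclease that cuts stalled replication forks, was at 0.98 ± 0.25. Gnl3, which encodes nucleostemin, was at 0.44 ± 0.11, and Fzr1, an activator of the anaphase-promoting complex, at 0.45 ± 0.12. All 3 combination tumours lay above the additive level in each of the 12 genes, which follows largely from their choice by small p.

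**Figure D2:**
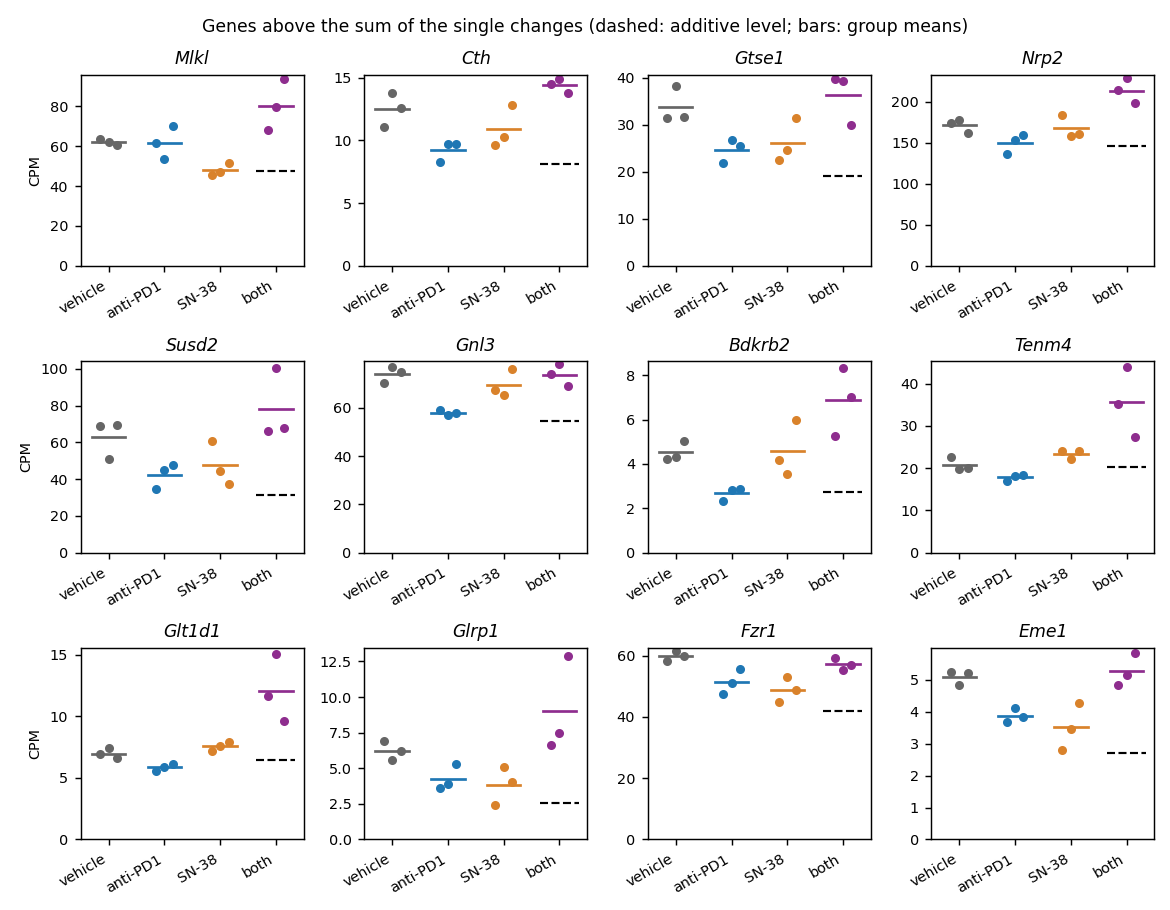
CPM in each tumour (points, 3 per group) for the 12 protein-coding genes of smallest p above the sum, with group means (solid bars) and the additive level (dashed bar over the combination). The 3 combination tumours lie above the dashed bar in all panels, and above all 9 other tumours for Nrp2, Tenm4 and Glt1d1. The place above the bar follows largely from the choice of genes by small p.

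Type I interferon response genes lay above the sum as a list. The list holds antiviral effectors, the RNA sensors that induce them and the transcription factors that drive them. All 34 of 34 tested members were above the sum, beside 48.2% of all genes, and 14 were above it at an unadjusted p under 0.05, beside 3.4% of all genes. The median interaction was 0.51, beside -0.014 over all genes. The medians of the changes from vehicle were 0.13 with anti-PD1, -0.51 under SN-38 and 0.24 with both. SN-38 alone was the low group, and in the combination the genes stood near the anti-PD1 level. The list score was 7.26, 7.14 and 7.06 in the vehicle tumours, 7.30, 6.87 and 7.59 under the antibody, 6.64, 6.74 and 6.53 under SN-38 and 7.13, 7.22 and 7.70 under both agents. All 3 SN-38 tumours were below all 9 others.

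Rsad2, which encodes the antiviral enzyme viperin, was at 70.6, 61.05 and 64.01 CPM in the vehicle tumours, 40.2, 34.5 and 75.8 under the antibody, 26.04, 41.3 and 28.3 under SN-38 and 52.6, 82.5 and 90.9 under both agents. Every combination tumour was above every SN-38 tumour, and the Rsad2 interaction was 1.62 ± 0.43 (unadjusted p 0.00327) against an additive level of 22.7 CPM. Cmpk2, its neighbour on chromosome 12, was at 50.5, 42.6 and 42.8 CPM in the vehicle tumours, 35.1, 30.3 and 53.2 under the antibody, 19.4, 27.5 and 17.5 under SN-38 and 35.2, 46.4 and 57.3 under both agents, an interaction of 1.31 ± 0.34. Usp18, which removes the ubiquitin-like protein ISG15 and dampens the interferon receptor, was at 176, 162 and 161 CPM in the vehicle tumours, 150.1, 137 and 193 under the antibody, 119.7, 111 and 105 under SN-38 and 143, 198 and 206 under both agents, an interaction of 0.76 ± 0.22. These 3 had the smallest p-values of the list. Among the others, Isg15 at 0.88, Oasl1 at 1.74, Mx1 at 1.14 and Irf7 at 0.67 were above 0, and Irf9 at 0.075 and Ifi27l2a at 0.14 were the nearest to 0.

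The third anti-PD1 and the third combination tumours had the highest interferon scores, 7.59 and 7.70, and they are the tumours of high T-cell score. The median interaction of the list was 0.42 without that pair. Leaving out 1 tumour at a time gave 0.28 to 0.65, the lowest without the second anti-PD1 tumour. Genes of cytosolic nucleic acid sensing overlap this list in part. Of 17 tested, 14 lay above the sum and 3 below it, with 6 above at an unadjusted p under 0.05 and 0 below. Ikbke, a kinase that activates IRF3, was at 57.3, 51.4 and 56.6 CPM in the vehicle tumours, 45.98, 49.9 and 55.4 under the antibody, 50.8, 48.4 and 43.2 under SN-38 and 59.9, 56.5 and 61.4 under both agents, an interaction of 0.45 ± 0.13. The DNA sensors Ifi204 (0.84 ± 0.30), Aim2 (0.43 ± 0.16) and Cgas (0.57) were also above the sum, whereas the adaptors Mavs at -0.044 and Ticam1 at -0.050 were near 0. The list median was 0.31, and it was 0.073 without the third combination tumour.

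Interferon-induced genes often carry a shared promoter element, the interferon-stimulated response element bound by interferon-activated transcription factors, searched here as 2 copies of GAAA with any 2 bases between them. It is printed here for genes of the list because they lay on the same side of the sum. Windows from 250 bases before to 50 after the start came from RefSeq on GRCm38.p6, and 24 of the 34 genes had one. The element, on either strand and counted once per gene, was in 12 of 24 windows (50%), beside 463 of 11656 (3.97%) over tested genes with a window. The list was made of interferon response genes, so this share describes its make-up and not the interaction. Capitals mark the match, which in Rsad2 and Ifit1 is on the other strand and so reads as 2 copies of TTTC. The Rsad2 stretch lies at chr12:26456543-26456592 on the minus strand, that of Isg15 at chr4:156200861-156200910 on the minus strand, that of Oas3 at chr5:120777705-120777754 on the minus strand and that of Ifit1 at chr19:34640784-34640833 on the plus strand. In Isg15 this match overlaps 2 others.
Rsad2: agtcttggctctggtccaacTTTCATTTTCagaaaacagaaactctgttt
Isg15: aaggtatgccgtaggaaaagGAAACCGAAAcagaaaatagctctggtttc
Oas3: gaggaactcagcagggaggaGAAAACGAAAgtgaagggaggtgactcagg
Ifit1: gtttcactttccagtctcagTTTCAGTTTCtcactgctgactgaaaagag
A match describes these letters and is not a measured binding site.

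Cell-cycle genes also lay above the sum. All 25 of 25 mitosis and G2/M genes were above it, 12 of them at an unadjusted p under 0.05, with a median interaction of 0.66. The median changes from vehicle were -0.37 with anti-PD1, -0.33 under SN-38 and -0.032 with both. Each agent alone thus had lower medians, and the combination was near vehicle. Of DNA replication and G1/S genes, 28 of 28 were above the sum, 8 of them at an unadjusted p under 0.05, with a median of 0.54 and single changes of -0.31 and -0.34 against a combined change of -0.10. The G2/M score was 6.11, 6.46 and 6.35 in the vehicle tumours, 5.81, 6.09 and 5.95 under the antibody, 5.39, 6.02 and 6.36 under SN-38 and 6.48, 6.23 and 6.12 under both agents. SN-38 tumours differed widely, and the first had the lowest score of all 12.

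Ttk, the kinase Mps1 of the spindle checkpoint, was at 31.4, 36.9 and 33.7 CPM in the vehicle tumours, 20.3, 26.4 and 26.2 under the antibody, 15.6, 25.5 and 29.6 under SN-38 and 37.4, 31.5 and 31.9 under both agents. All 3 anti-PD1 and all 3 SN-38 tumours were below all vehicle tumours, and the combination overlapped vehicle. The Ttk interaction was 0.997 ± 0.28 (unadjusted p 0.00511) against an additive level of 16.2 CPM. Ccnb2, which encodes cyclin B2, was at 51.04, 73.96 and 66.9 CPM in the vehicle tumours, 39.4, 46.7 and 43.98 under the antibody, 32.9, 42.6 and 54.6 under SN-38 and 66.6, 57.1 and 46.97 under both agents, an interaction of 0.95 ± 0.28. Kif23, a kinesin of cytokinesis, was at 93.02, 115 and 116 CPM in the vehicle tumours, 61.8, 87.04 and 74.97 under the antibody, 51.01, 83.7 and 102 under SN-38 and 122, 101 and 106 under both agents, an interaction of 1.01 ± 0.31. Mki67, the gene of the proliferation marker Ki-67, was at 295, 405 and 332 CPM in the vehicle tumours, 323, 299.6 and 321 under the antibody, 189, 385 and 388 under SN-38 and 539, 343 and 352 under both agents. Its interaction of 0.49 ± 0.37 was among the smaller ones of the list, and 1 combination tumour was far above the others.

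Among replication genes, Mcm10 was at 23.9, 27.8 and 26.9 CPM in the vehicle tumours, 17.6, 19.6 and 23.2 under the antibody, 9.796, 19.5 and 25.2 under SN-38 and 28.1, 24.5 and 28.4 under both agents, an interaction of 0.95 ± 0.37. Cdc45, of the replicative helicase, was at 0.68 ± 0.24 and Pold1, the catalytic subunit of DNA polymerase delta, at 0.52 ± 0.19. The first SN-38 tumour was lowest in Mcm10, and leaving that tumour out moved the list medians to 0.35 for replication and 0.44 for G2/M. Leaving out the third SN-38 tumour moved them to 0.82 and 0.91, so the direction was the same and the size depended on which SN-38 tumours were used. The first SN-38 tumour is also one of those of high neutrophil score.

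G2/M promoters often carry CCAAT boxes and the cell-cycle homology region TTTGAA, the element of the DREAM and MuvB complexes. Of the 25 genes, 21 had a RefSeq window. TTTGAA on either strand was in 16 of 21 (76.2%), beside 14.9% of 11656 windows, and CCAAT in 18 of 21 (85.7%), beside 42.3%. These shares describe the make-up of a G2/M list and not the interaction. The stretches below show a TTTGAA match in Ccnb2 (chr9:70421696-70421741 on the minus strand), Cdk1 (chr10:69352958-69353003 on the minus strand) and Prc1 (chr7:80294426-80294471 on the plus strand), and then a CCAAT match in Ttk (chr9:83834604-83834648 on the plus strand). Capitals mark the match.
Ccnb2: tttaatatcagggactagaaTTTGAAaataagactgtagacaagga
Cdk1: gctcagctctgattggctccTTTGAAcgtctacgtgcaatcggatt
Prc1: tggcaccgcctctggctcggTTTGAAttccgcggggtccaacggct
Ttk: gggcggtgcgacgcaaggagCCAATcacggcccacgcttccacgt
Cdk1 had an interaction of 0.77 ± 0.28 and Prc1 of 0.46 ± 0.31, so the sequences come from genes on both sides of the list median.

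DNA damage checkpoint and repair genes were mixed. Of 26 tested, 18 lay above the sum and 8 below it, and 7 were above and 1 below it at an unadjusted p under 0.05, with a median of 0.23. Fanca, of the Fanconi anaemia core complex, was at 22.5, 22.8 and 21.1 CPM in the vehicle tumours, 20.1, 18.9 and 20.7 under the antibody, 13.4, 17.7 and 22.2 under SN-38 and 25.1, 27.8 and 28.1 under both agents, an interaction of 0.76 ± 0.21. H2afx, the histone variant phosphorylated at breaks, was at 74.6, 104 and 90.8 CPM in the vehicle tumours, 63.7, 67.4 and 68.7 under the antibody, 48.4, 66.1 and 68.98 under SN-38 and 93.4, 67.3 and 70.3 under both agents, an interaction of 0.76 ± 0.24. Chek1, the S phase and G2 checkpoint kinase, was at 25.1, 28.9 and 29.1 CPM in the vehicle tumours, 16.9, 19.8 and 20.8 under the antibody, 12.3, 17.1 and 24.9 under SN-38 and 23.4, 20.8 and 25.1 under both agents, an interaction of 0.88 ± 0.29. The median was 0.072 without the first SN-38 tumour.

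Targets of p53 showed no common departure. Of 22, 13 lay above the sum and 9 below it, and 2 were above and 2 below it at an unadjusted p under 0.05, with a median of 0.087. Tnfrsf10b, a death receptor for TRAIL, was at 0.79 ± 0.26, Gadd45a at 0.62 ± 0.25 and Trp53inp1 at -0.56 ± 0.22. Cdkn1a, the inhibitor p21, was at 87.5, 88.7 and 76.8 CPM in the vehicle tumours, 73.3, 68.6 and 66.3 under the antibody, 79.9, 40.3 and 92.5 under SN-38 and 91.6, 101 and 70.6 under both agents. Its interaction of 0.59 ± 0.35 was within 2 SE of 0, and the SN-38 tumours ranged from 40.3 to 92.5 CPM. Genes that handle SN-38 or repair trapped topoisomerase I were split as well. Of 15 tested, 8 lay above the sum and 7 below it, and 0 had an unadjusted p under 0.05. Top1, the target of SN-38, was at 94.4, 89.7 and 102 CPM in the vehicle tumours, 89.5, 96.8 and 94.9 under the antibody, 87.6, 93.2 and 97.9 under SN-38 and 87.05, 86.4 and 82.9 under both agents, an interaction of -0.093 ± 0.10. Top1 levels overlapped in vehicle and both single groups, and all 3 combination tumours were below every tumour of the other groups. Top2a (0.61 ± 0.28), Top1mt (0.45 ± 0.23) and the carboxylesterase gene Ces2e (0.95 ± 0.51) had the smallest p-values of that list, with 1 combination tumour at 126 CPM of Ces2e. Without the 2 tumours of high neutrophil score, of which it is one, Ces2e was at 0.24. With single tumours left out the median of the p53 list ran from -0.064 to 0.27 and that of the SN-38 list from -0.040 to 0.19.

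Chemokines and inflammatory cytokines that recruit or are made by neutrophils and macrophages lay above the sum. All 20 of 20 tested were above it, but only 2 at an unadjusted p under 0.05, and the median was 0.86. Median changes were 0.024 with anti-PD1, 0.11 under SN-38 and 1.05 with both. Lif, a cytokine of the interleukin-6 family, was at 40.1, 47.7 and 42.5 CPM in the vehicle tumours, 42.4, 36.3 and 36.6 under the antibody, 43.6, 28.7 and 36.1 under SN-38 and 52.9, 62.1 and 46.8 under both agents. All 3 combination tumours of Lif were above all SN-38 and all anti-PD1 tumours, and the interaction was 0.75 ± 0.22. Ccl20, the ligand of CCR6, was at 1.09, 1.73 and 1.27 CPM in the vehicle tumours, 0.764, 1.53 and 1.37 under the antibody, 0.773, 0.877 and 0.884 under SN-38 and 1.93, 2.04 and 1.41 under both agents, an interaction of 1.24 ± 0.42. Ccl2, which draws monocytes, was at 15.03, 11.6 and 11.7 CPM in the vehicle tumours, 8.87, 11.1 and 28.5 under the antibody, 7.29, 8.45 and 4.74 under SN-38 and 13.1, 15.2 and 30.9 under both agents, an interaction of 1.19 ± 0.64.

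The remaining chemokine values had wide errors. Cxcl1 was at 0.96 ± 0.60, Ptgs2, the inducible cyclooxygenase, at 1.73 ± 0.94, Tnf at 1.04 ± 0.60 and Il1b at 0.011 ± 0.99. The chemokine score was 2.09, 1.98 and 1.81 in the vehicle tumours, 1.503, 1.53 and 2.35 under the antibody, 2.95, 1.30 and 1.71 under SN-38 and 2.66, 3.352 and 2.54 under both agents. The 2 highest scores, in the second combination and first SN-38 tumours, were in the tumours of high neutrophil score. The defining neutrophil markers went with them, S100a9 being at 45.3 CPM in the first SN-38 tumour and 35.3 CPM in the second combination tumour, against 0.461 to 5.16 in the other 10. Without both tumours the median interaction of the chemokine list was 1.15. The neutrophil list itself had 6 genes above and 6 below the sum, and its median went from -0.22 to 1.28 without the pair.

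**Figure D3:**
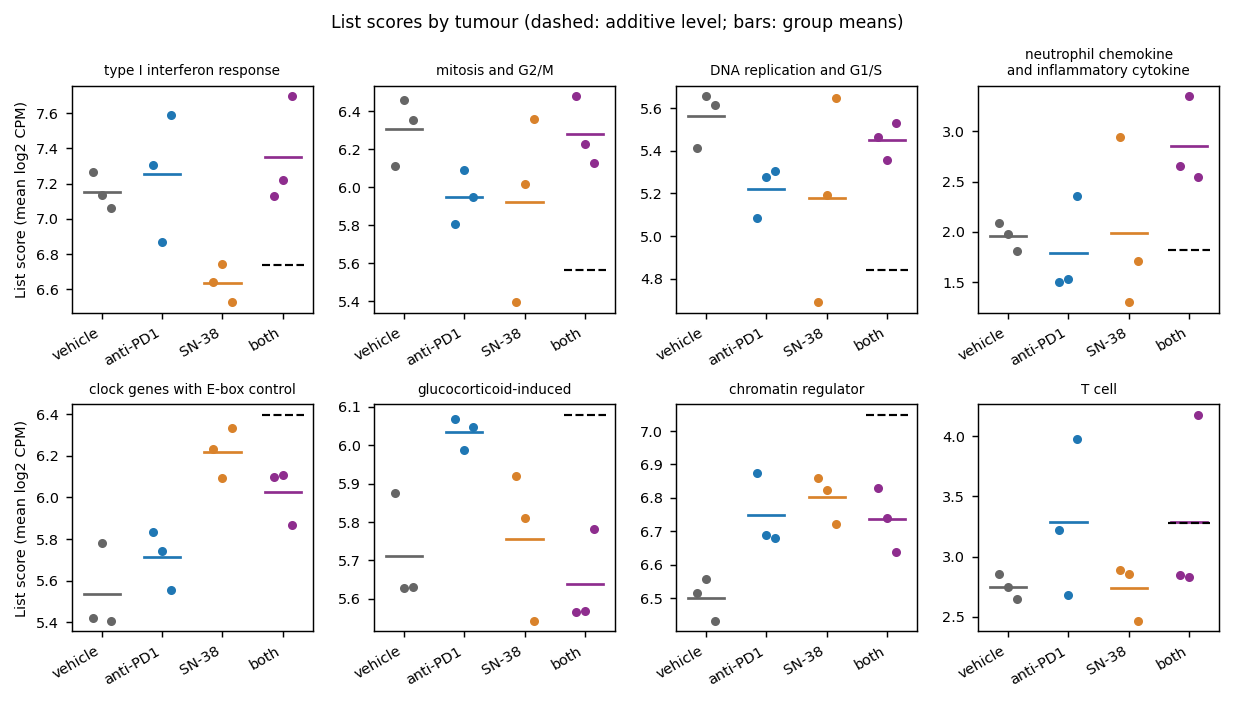
Score of 8 gene lists (mean log2 CPM over the tested members) in each tumour, with group means (solid bars) and the additive level (dashed bar). The combination mean is above the dashed bar for the interferon, G2/M, replication and chemokine lists, below it for the clock, glucocorticoid and chromatin lists, and close to it for T cells, where the third anti-PD1 and the third combination tumours lie far above the rest.

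Clock genes with E-box control lay below the sum. These genes, of the period, cryptochrome, Rev-erb and PAR bZIP families, are driven by CLOCK and BMAL1 through the motif CACGTG and feed back on them. Of 13 tested, 2 lay above the sum and 11 below it, and 5 of the 11 had an unadjusted p under 0.05, beside 4.22% of all genes. The median was -0.54. Median changes were 0.19 with anti-PD1, 0.77 under SN-38 and 0.61 with both, so the median combined change was below that of SN-38 alone. The score was 5.42, 5.78 and 5.41 in the vehicle tumours, 5.84, 5.74 and 5.56 under the antibody, 6.23, 6.09 and 6.34 under SN-38 and 6.10, 6.11 and 5.87 under both agents. The second vehicle tumour was the highest of its group, and all 3 SN-38 scores were above all vehicle scores. The hour of tumour collection is not given in the sources used here, and its part in these values was not tested.

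Nr1d1, which encodes the repressor Rev-erb-alpha and lies at chr11:98767932-98775333, was at 172, 223 and 196 CPM in the vehicle tumours, 289, 322 and 229 under the antibody, 401, 291 and 324 under SN-38 and 248, 275 and 245 under both agents. Each single agent was above all vehicle tumours, as was the combination, but the combination was below all SN-38 tumours. The Nr1d1 interaction was -0.91 ± 0.22 (unadjusted p 0.00161) against an additive level of 475 CPM. Tef was at 187, 255 and 177 CPM in the vehicle tumours, 250.2, 258 and 227 under the antibody, 349.7, 370.3 and 334 under SN-38 and 321, 267 and 239 under both agents, an interaction of -0.60 ± 0.21, and Nr1d2, the Rev-erb-beta gene, was at -0.36 ± 0.13. Per2 was at 14.9, 18.6 and 11.5 CPM in the vehicle tumours, 23.1, 20.9 and 21.5 under the antibody, 33.3, 39.7 and 46.5 under SN-38 and 32.1, 47.2 and 29.9 under both agents, an interaction of -0.67 ± 0.29. Cry2 was at 20.9, 21.4 and 19.6 CPM in the vehicle tumours, 23.6, 25.7 and 25.03 under the antibody, 33.7, 42.4 and 33.7 under SN-38 and 46.8, 34.5 and 37.6 under both agents, an interaction of -0.14 ± 0.18. The Cry2 estimate was within its error of 0, and the combination overlapped SN-38. Ciart (0.77 ± 0.38) and Cry1 (0.35 ± 0.30) were the 2 members above the sum.

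The E-box CACGTG, which reads the same on both strands, was in the RefSeq window of 5 of 11 clock genes with a window (45.5%), beside 11.2% of 11656. The list was made of genes with E-box control, so this share describes its make-up and not the interaction. The motif is printed for Per1 (chr11:69098763-69098808 on the plus strand) and Tef (chr15:81802526-81802571 on the plus strand), which were below the sum, and for Ciart (chr3:95882319-95882364 on the minus strand), which was above it. Capitals mark the match.
Per1: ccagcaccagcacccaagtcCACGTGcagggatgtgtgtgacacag
Tef: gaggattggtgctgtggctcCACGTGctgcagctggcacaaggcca
Ciart: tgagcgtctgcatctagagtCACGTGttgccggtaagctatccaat
Genes of the opposite phase, which Rev-erb proteins repress, had a small median. Of 7, 6 lay above the sum and 1 below it, with a median of 0.12 and 0 at an unadjusted p under 0.05. Clock was at -0.16 ± 0.20, Arntl2 at 0.16 ± 0.18 and E2f8 at 0.64 ± 0.30. The median turned to -0.066 without the third SN-38 tumour.

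Glucocorticoid-induced genes, a list that shares Pik3r1, Klf13 and Per1 with groups above, lay mostly below the sum. Of 19, 4 lay above the sum and 15 below it, and 0 were above and 6 below it at an unadjusted p under 0.05, with a median of -0.37. Tsc22d3, which encodes the glucocorticoid-induced leucine zipper GILZ, was at 497, 335 and 352 CPM in the vehicle tumours, 551, 459 and 410.2 under the antibody, 249, 348 and 229 under SN-38 and 115, 194 and 211 under both agents. All 3 combination tumours were below all 9 others, and the interaction was -0.93 ± 0.35 (unadjusted p 0.0232). Zbtb16, a transcription factor known as PLZF, was at 6.002, 3.51 and 3.67 CPM in the vehicle tumours, 11.2, 11.4 and 8.199 under the antibody, 6.08, 8.299 and 3.25 under SN-38 and 5.16, 2.27 and 4.73 under both agents, an interaction of -1.76 ± 0.54. Zbtb16 was higher in all 3 anti-PD1 tumours than in any vehicle tumour, and the combination overlapped vehicle. Fkbp5, a chaperone of the glucocorticoid receptor, was at -0.82 ± 0.29. Other members were near 0, such as Ddit4 (-0.074 ± 0.28) and Nfkbia (0.022 ± 0.30). The list score was 5.88, 5.63 and 5.63 in the vehicle tumours, 6.07, 5.99 and 6.05 under the antibody, 5.92, 5.81 and 5.54 under SN-38 and 5.57, 5.57 and 5.78 under both agents, with all 3 anti-PD1 tumours above all others.

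Genes of the PI3-kinase and FoxO axis leaned the same way. FoxO factors are held out of the nucleus by PI3-kinase signalling and drive genes of growth arrest. Of 24, 6 lay above the sum and 18 below it, and 0 were above and 5 below it at an unadjusted p under 0.05, with a median of -0.20. Beside Pik3r1, Foxo3 was at 170.4, 153 and 153 CPM in the vehicle tumours, 214, 205 and 180.3 under the antibody, 164, 169 and 139 under SN-38 and 149.8, 143 and 117 under both agents, an interaction of -0.53 ± 0.16, with all combination tumours below all anti-PD1 tumours. Irs1, an adaptor of insulin receptors, was at 41.01, 43.4 and 36.8 CPM in the vehicle tumours, 56.9, 55.8 and 43.8 under the antibody, 55.3, 67.5 and 74.6 under SN-38 and 38.4, 58.3 and 54.5 under both agents, an interaction of -0.75 ± 0.24. Foxo1 was at -0.61 ± 0.26. The catalytic subunits Pik3ca at -0.033 and Pik3cb at 0.072 and the other regulatory subunits Pik3r2 at -0.13 and Pik3r3 at -0.086 were near 0.

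In the Myc and Max network the members lay on both sides. Myc itself was at 166, 206 and 182 CPM in the vehicle tumours, 165, 179.7 and 159 under the antibody, 113, 147 and 157 under SN-38 and 200.4, 196 and 180.04 under both agents. SN-38 alone was below vehicle without overlap, and the combination overlapped vehicle, which gives an interaction of 0.60 ± 0.18. Of the Max-binding antagonists of Myc, Mnt (-0.47 ± 0.097) and Mxd4 were below the sum, Mxd4 being at 237, 209 and 203 CPM in the vehicle tumours, 264, 271 and 230.5 under the antibody, 248, 279 and 213 under SN-38 and 204, 185 and 189.9 under both agents with an interaction of -0.59 ± 0.16. Mycl, a paralogue of Myc, was also below it at -0.93 ± 0.29, and so was Mga at -0.33 ± 0.13, whereas Mxd3 at 0.56, Mxd1 at 0.085 and Mxi1 at -0.022 were within 2 SE of 0 and Max was at 0.11 ± 0.12. In all, 5 of 11 lay above the sum and 6 below it, 1 and 4 of them at an unadjusted p under 0.05, with a median of -0.022 that ran from -0.22 to 0.099 with single tumours left out.

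Ubiquitin ligases and related genes of T-cell anergy, the list that holds Cblb, had 4 members above and 8 below the sum, with 0 and 4 at an unadjusted p under 0.05 and a median of -0.26. Nedd4l was at 69.1, 63.9 and 61.5 CPM in the vehicle tumours, 106, 104 and 71.2 under the antibody, 105, 80.1 and 83.2 under SN-38 and 77.7, 90.7 and 65.6 under both agents, an interaction of -0.72 ± 0.24, and Nedd4 at -0.41 ± 0.15. These are broadly expressed ligases, and Nedd4 stood near 976 CPM in vehicle, so the values are those of whole tumours. Egr2 (0.31 ± 0.51) and Egr3 (0.18 ± 0.60), transcription factors of anergic T cells, were above 0 with wide errors.

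Chromatin regulators were the list with most members of small p below the sum. The list was chosen with earlier results of these data known, and it holds Kmt2c and Med13l, named above for their small p. Of 20, 3 lay above the sum and 17 below it, and 0 were above and 8 below it at an unadjusted p under 0.05, with a median of -0.31. Median changes were 0.24 with anti-PD1, 0.34 under SN-38 and 0.26 with both, so the 3 treated groups stood at a like height above vehicle. Med13, a paralogue of Med13l, was at 77.8, 74.9 and 75.2 CPM in the vehicle tumours, 111, 94.6 and 90.2 under the antibody, 98.4, 94.2 and 95.8 under SN-38 and 94.98, 94.8 and 85.3 under both agents. All 3 treated groups were above all vehicle tumours, and the Med13 interaction was -0.44 ± 0.12. The acetyltransferase gene Crebbp was at -0.43 ± 0.15, the demethylase gene Kdm6a at -0.55 ± 0.20 and the methyltransferase gene Ash1l at -0.54 ± 0.21. Smarca4 at 0.056 was near 0, and Ezh2, which is made in cycling cells, was at 0.25 ± 0.16.

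Transcript length moved with these values. The median exonic length was 6059 bases over the 711 genes below the sum and 3669.5 over the 573 genes above it, beside 3851 over all genes tested. When 12088 protein-coding genes were divided into 10 equal bins by exonic length, the median interaction was 0.027 in the shortest bin and -0.15 in the longest. In the longest bin 74.2% of genes were below the sum, and 13.4% of its genes were below it at an unadjusted p under 0.05, against 1.41% in the shortest. The median log2 deviation of the longest bin minus that of the shortest was -0.12, -0.17 and -0.20 in the vehicle tumours, 0.099, -0.030 and -0.082 with anti-PD1, 0.066, 0.20 and 0.053 under SN-38, and 0.18, 0.087 and -0.040 with both. All 3 vehicle tumours were below all 9 treated tumours, so long genes stood relatively higher in treated tumours whichever agent was given.

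With an offset that takes out a smooth trend on exonic length in each tumour, 594 genes were below the sum at an unadjusted p under 0.05 and 539 above it. Gclc, with an exonic length of 3766 bases, was at -1.23 with this offset, Cblb at -1.13 and Pik3r1 at -1.03. Among the longest transcripts, Kmt2c moved to -0.80, Nbeal1 to -0.62 and Med13l to -0.36. The median of the chromatin list was -0.21 and that of the E-box clock list -0.46. RNA quality values were not among the data used here, and the part of RNA quality in these values was not tested.

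**Figure D4:**
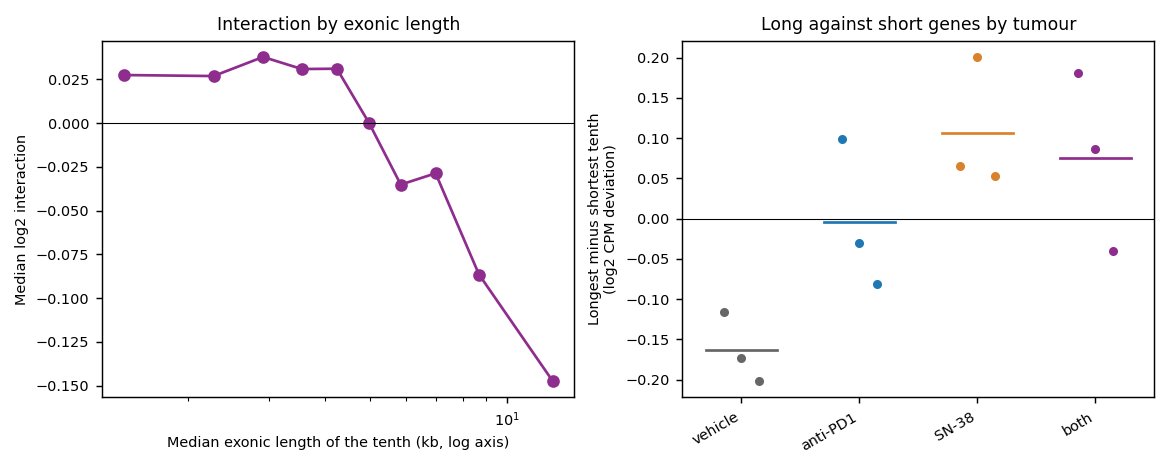
Left, median log2 interaction in each of 10 equal bins of 12088 protein-coding genes against the bin's median exonic length (kb, log axis). Right, median log2 deviation of the longest bin minus that of the shortest bin in each tumour (points, 3 per group, with group means as bars). The median interaction goes from 0.027 in the shortest bin to -0.15 in the longest, and all 3 vehicle tumours lie below the 9 treated tumours.

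T-cell genes had a median interaction near 0 that depended on single tumours. The T-cell list had 14 of 22 members above the sum and none at an unadjusted p under 0.05, with a median of 0.10. That median was -0.59 without the third combination tumour and 0.48 without the third anti-PD1 tumour. Cd8a was at 15.8, 15.6 and 13.3 CPM in the vehicle tumours, 24.8, 15.4 and 30.2 under the antibody, 18.5, 14.6 and 14.8 under SN-38 and 17.6, 19.7 and 28.8 under both agents. The tumours high in Cd8a were the first and the third with anti-PD1 and the third with both, and the interaction was -0.19 ± 0.35. Cd8b1 (-0.38 ± 0.43) and the costimulator Cd28 (0.65 ± 0.72) were among the members of smallest p.

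NK-cell genes had 6 of 15 members above the sum and a median of -0.018, which ran from -0.63 without the third combination tumour to 0.37 without the third anti-PD1 tumour. Ncr1, the NK receptor NKp46, was at 2.22, 1.88 and 1.93 CPM in the vehicle tumours, 2.38, 1.497 and 6.47 under the antibody, 1.29, 1.83 and 0.522 under SN-38 and 1.77, 1.53 and 6.999 under both agents, an interaction of 0.72 ± 0.97. The third anti-PD1 and the third combination tumours were far above the others in Ncr1. The smallest p-values of the list were those of Cd226 (-0.87 ± 0.53), Klrc1 (-0.55 ± 0.50) and Tbx21 (0.71 ± 0.68). Cytotoxic effectors had 6 of 12 members above the sum. Their median was -0.43 without the third combination tumour and 0.48 without the third anti-PD1 tumour. Granzyme B, Gzmb, was at 14.9, 12.1 and 6.67 CPM in the vehicle tumours, 21.8, 12.5 and 42.9 under the antibody, 17.2, 14.1 and 5.99 under SN-38 and 11.4, 6.71 and 39.5 under both agents, an interaction of -0.57 ± 0.94, and Gzmk (0.79 ± 0.51), Gzma (-0.83 ± 0.92) and Crtam (0.56 ± 0.69) had the smallest p-values. Interferon-gamma, Ifng, was low throughout, at 0.6296, 0.591 and 0.424 CPM in the vehicle tumours, 0.934, 0.576 and 1.73 under the antibody, 0.663, 0.622 and 0.321 under SN-38 and 1.09, 0.833 and 2.23 under both agents, an interaction of 0.39 ± 0.69.

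The antibody's target and its ligand gave no clear departure. Pdcd1, the gene of PD-1, was at 6.76, 5.91 and 4.55 CPM in the vehicle tumours, 13.6, 6.22 and 16.6 under the antibody, 5.89, 5.301 and 5.54 under SN-38 and 7.69, 7.96 and 23.8 under both agents. Its interaction was 0.16 ± 0.64, and it was -0.30 without the 2 tumours of high T-cell score. Cd274, the gene of PD-L1, was at 90.1, 71.2 and 45.5 CPM in the vehicle tumours, 226, 77.4 and 162 under the antibody, 102, 53.3 and 39.2 under SN-38 and 87.6, 88.7 and 193 under both agents, with 226 CPM in 1 anti-PD1 tumour. Its interaction was -0.24 ± 0.68, and it turned to 0.44 without the 2 tumours of high neutrophil score. Of 16 checkpoint receptors and ligands, 9 lay above the sum and 7 below it, with a median of 0.020 that ran from -0.45 without the third combination tumour to 0.47 without the third anti-PD1 tumour. Lgals9, which encodes galectin-9, was the 1 member at an unadjusted p under 0.05. It was at 274, 253 and 241 CPM in the vehicle tumours, 200.4, 231 and 280.4 under the antibody, 174, 199.6 and 164 under SN-38 and 219, 209 and 280.2 under both agents, an interaction of 0.51 ± 0.20. Nt5e, the adenosine-making enzyme CD73, was at -0.55 ± 0.37 and Cd160 at -0.56 ± 0.89.

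Interferon-gamma response genes had 17 of 24 above the sum, 1 of them at an unadjusted p under 0.05, and a median of 0.16. This median was -0.027 without the 2 tumours of high T-cell score. Cxcl10, a chemokine for activated T cells, was at 135, 132 and 79.2 CPM in the vehicle tumours, 97.6, 71.3 and 182 under the antibody, 39.5, 59.7 and 53.8 under SN-38 and 115, 99.3 and 246 under both agents. Every combination tumour was above every SN-38 tumour, and the interaction was 1.57 ± 0.58 (unadjusted p 0.0213). Cxcl9 was at 117, 80.8 and 36.5 CPM in the vehicle tumours, 123, 60.4 and 207 under the antibody, 40.6, 50.7 and 37.4 under SN-38 and 106, 86.8 and 322 under both agents, an interaction of 1.27 ± 0.82, and Cxcl11 was at 1.40 ± 0.65. All 3 were highest in the third combination tumour. Class I presentation genes had small interactions, with 16 of 19 above the sum, 0 of them at an unadjusted p under 0.05, and a median of 0.098. H2-K1 was at 2914, 2960.4 and 2628 CPM in the vehicle tumours, 3095, 2714 and 3374 under the antibody, 3299, 2448 and 2686 under SN-38 and 2781, 2975 and 3492 under both agents, an interaction of 0.022 ± 0.21. The proteasome genes Psme2 (0.32 ± 0.20), Psmb10 (0.49 ± 0.33) and Psme1 (0.31 ± 0.22) led that list. Class II genes had 11 of 11 above the sum, 0 of them at an unadjusted p under 0.05, and a median of 0.25. H2-DMb2 (0.82 ± 0.63), H2-DMb1 (0.44 ± 0.41) and H2-DMa (0.37 ± 0.47) led the class II list. Without the third combination tumour the medians turned to -0.066 for class I, -0.18 for class II and -0.18 for the interferon-gamma list.

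Other immune lists were above the sum more often than below. Regulatory T-cell genes had 9 of 11 above it, 0 of them at an unadjusted p under 0.05, with a median of 0.46. Il10 (1.48 ± 0.97), Tnfrsf18 (0.71 ± 0.56) and Lrrc32 (0.36 ± 0.32) led that list. Macrophage genes had 16 of 18 above the sum, 1 of them at an unadjusted p under 0.05, with a median of 0.40. The scavenger receptor gene Cd163 was at 1.09, 1.37 and 5.52 CPM in the vehicle tumours, 1.74, 0.998 and 0.503 under the antibody, 2.32, 1.499 and 1.97 under SN-38 and 1.41, 9.35 and 4.63 under both agents. Its interaction of 2.71 ± 1.07 came with 1 vehicle tumour and 2 combination tumours above the rest. Fcgr1 was at 0.55 ± 0.38 and Siglec1 at 0.98 ± 0.68. Dendritic-cell genes had 14 of 15 above the sum, 1 of them at an unadjusted p under 0.05, with a median of 0.42. Fscn1, which encodes the actin bundler of mature dendritic cells and is also made by carcinoma cells, was at 83.9, 83.01 and 78.6 CPM in the vehicle tumours, 62.4, 61.2 and 91.4 under the antibody, 80.5, 69.1 and 71.3 under SN-38 and 82.01, 121 and 129 under both agents, an interaction of 0.78 ± 0.26. Bst2, which is also in the type I interferon list, was at 0.62 ± 0.30 and Clec10a at 1.13 ± 0.71. Without the third combination tumour the medians were -0.065 for regulatory T cells, 0.050 for macrophages and -0.15 for dendritic cells.

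The B-cell list, with 7 of 12 genes tested, had 6 above the sum at levels near the limit of detection. Pax5 was at 0.168, 0.295 and 0.386 CPM in the vehicle tumours, 0.127, 0.269 and 0.1798 under the antibody, 0.0737, 0.1097 and 0.0804 under SN-38 and 0.161, 0.787 and 0.412 under both agents, Bank1 at 1.46 ± 0.63 and Fcrla at 1.25 ± 0.89. The Pax5 values rest on small counts, and its fitted interaction of 2.83 ± 0.85 is read no further. Mast-cell genes had 4 of 9 above the sum, with Kit at -0.24 ± 0.66, Tpsb2 at 0.18 ± 0.84 and Fcer1a at -0.19 ± 1.06 and a median that ran from -0.82 without the third combination tumour to 0.69 without the third anti-PD1 tumour. Neutrophil genes were led by Acod1 (1.198 ± 1.06), Mmp9 (-0.43 ± 0.69) and Il1r2 (-0.51 ± 0.93).

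Endothelial genes lay above the sum, 16 of 19, with 3 at an unadjusted p under 0.05 and a median of 0.29. Mmrn2, a matrix protein of vessel walls, was at 8.52, 8.49 and 9.22 CPM in the vehicle tumours, 7.56, 7.83 and 9.49 under the antibody, 8.43, 9.58 and 9.72 under SN-38 and 13.6, 15.3 and 11.1 under both agents. All 3 combination tumours were above all 9 others, and the interaction was 0.60 ± 0.21. Tie1, an angiopoietin co-receptor, was at 0.52 ± 0.22 and Egfl7, a secreted vessel protein, at 0.57 ± 0.23. The endothelial score was 3.10, 3.29 and 3.26 in the vehicle tumours, 3.08, 3.07 and 3.36 under the antibody, 3.33, 3.40 and 3.12 under SN-38 and 3.45, 3.64 and 3.48 under both agents, so the combination was the highest group in each of its tumours. The median of the list was 0.45 without the 2 tumours of high T-cell score and 0.36 without the 2 of high neutrophil score.

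Fibroblast and matrix genes had 22 of 25 below the sum, with a median of -0.35 and none at an unadjusted p under 0.05. Postn was at -0.62 ± 0.58, Sparc at -0.79 ± 0.87 and Dcn at -0.92 ± 1.06. The second SN-38 tumour had the highest collagen, with Col1a1 at 25996 CPM against 2411 to 13095 in the other 11, and without it the list median turned to 0.54. The direction of this list therefore rests on that tumour. Skeletal muscle genes had 16 of 18 above the sum, 0 of them at an unadjusted p under 0.05, led by Pygm (0.77 ± 0.91), Myh1 (0.99 ± 1.19) and Atp2a1 (1.01 ± 1.32). The muscle score was -0.78 in the second combination tumour against 1.65 to 4.39 in the others. The muscle median was 0.39 in edgeR's fit, -0.12 without the first combination tumour and -0.24 in limma voom. Adipocyte genes had 6 of 6 above the sum, 0 of them at an unadjusted p under 0.05. Cfd, Adipoq and Car3 had interactions of 2.33 ± 2.07, 2.397 ± 2.31 and 0.58 ± 1.03. Their errors were near or above the estimates, and the median of the list turned to -0.45 without the third vehicle tumour.

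Epithelial genes, which come from the carcinoma cells and from any skin taken with them, had medians near 0. Basal squamous genes had 7 of 16 above the sum and a median of -0.051. Trp63, the master regulator of squamous epithelium, was at -0.28 ± 0.14, Egfr at -0.38 ± 0.17 and Dst, a cytolinker of hemidesmosomes with a long transcript, at -0.58 ± 0.25. Genes of differentiated squamous epithelium had 5 of 12 above it and a median of -0.11. Sprr1b was at 1.93 ± 1.003, Krt10 at -3.12 ± 1.70 and Dsg1a at -1.63 ± 1.41, all at or below 1.74 CPM except Krt10 in 1 SN-38 tumour, at 11.8 CPM. With single tumours left out, the median ran from -0.20 to 0.018 for the basal list and from -0.43 to 0.12 for the differentiated one.

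Signalling lists were mixed. Immediate early genes had 16 of 22 above the sum, 2 of them at an unadjusted p under 0.05, with a median of 0.33. Besides Myc, Fosl1, an AP-1 subunit, was at 2.81, 3.84 and 3.94 CPM in the vehicle tumours, 1.104, 2.801 and 2.48 under the antibody, 3.17, 1.32 and 2.41 under SN-38 and 4.99, 4.03 and 4.39 under both agents. All combination tumours of Fosl1 were above all others, and the interaction was 1.68 ± 0.52. Ier2 was at 0.41 ± 0.20. The median was 0.15 without the second anti-PD1 tumour. Genes of MAP kinase feedback had 15 of 18 above the sum, with a median of 0.41. At an unadjusted p under 0.05, 0 members lay above the sum and 1, Dusp14, below it. Dusp6, a phosphatase of ERK, was at 0.72 ± 0.37 and Dusp7 at 0.45 ± 0.22. Without the second combination tumour the median was 0.21, and without both tumours of high neutrophil score Dusp6 was at 0.25. Dusp14 went the other way. It was at 30.1, 26.5 and 30.4 CPM in the vehicle tumours, 25.6, 29.97 and 20.4 under the antibody, 25.01, 26.7 and 20.2 under SN-38 and 16.6, 13.5 and 14.8 under both agents, with all combination tumours below all others and an interaction of -0.48 ± 0.21.

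NF-kB pathway genes had 12 of 16 above the sum and a median of 0.065, which turned to -0.025 without the third SN-38 tumour. The subunit gene Rel was at 74.4, 75.3 and 68.98 CPM in the vehicle tumours, 104, 89.99 and 81.1 under the antibody, 104, 92.02 and 103 under SN-38 and 89.4, 61.5 and 92.8 under both agents, an interaction of -0.62 ± 0.20, while Nfkb2 (0.48 ± 0.21) and Bcl3 (0.59 ± 0.35) were above it. Cell death genes had 15 of 22 above the sum and 3 at an unadjusted p under 0.05, with a median of 0.25 that went to 0.044 without the third combination tumour. Beside Mlkl, Bid, which encodes a pro-apoptotic BH3 protein, was at 0.33 ± 0.15. TGF-beta genes were split, 8 above and 8 below, with a median of 0.011 that ran from -0.095 to 0.095 with single tumours left out. The ligand gene Tgfb2 was at 37.8, 44.5 and 45.6 CPM in the vehicle tumours, 42.9, 55.3 and 36.03 under the antibody, 70.2, 63.3 and 49.6 under SN-38 and 48.3, 44.8 and 31.5 under both agents, an interaction of -0.62 ± 0.28. The latent binding proteins differed in sign, Ltbp1 being at 0.53 ± 0.24 and Ltbp2 at -0.87 ± 0.55.

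Stress and metabolism lists had small medians. Genes of the unfolded protein and integrated stress responses had 18 of 26 above the sum, 4 and 1 at an unadjusted p under 0.05 above and below it, and a median of 0.17. Dnajb9 was at -0.37 ± 0.13, Aldh18a1 at 0.38 ± 0.14 and Mthfd2, a mitochondrial folate enzyme, at 48.7, 48.5 and 45.02 CPM in the vehicle tumours, 30.3, 30.7 and 44.4 under the antibody, 24.6, 25.04 and 42.3 under SN-38 and 39.2, 34.7 and 66.5 under both agents with an interaction of 1.04 ± 0.39. Nrf2 targets, the list of Gclc, had 9 of 16 above the sum and a median of 0.046. The quinone reductase gene Nqo1 was at 20.02, 27.6 and 18.5 CPM in the vehicle tumours, 45.2, 26.5 and 18.4 under the antibody, 33.4, 13.7 and 57.9 under SN-38 and 20.2, 19.02 and 11.3 under both agents, an interaction of -1.502 ± 0.67, and Srxn1 was at 0.32 ± 0.14. Gclc and Nqo1 were thus the 2 members below the sum at an unadjusted p under 0.05, and the median of the list ran from -0.072 to 0.20 with single tumours left out.

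Hypoxia and glycolysis genes had 15 of 20 above the sum, with Pkm (0.50 ± 0.27), Hk2 (0.62 ± 0.38) and Gapdh (0.37 ± 0.28) in the lead and none at an unadjusted p under 0.05. Their median of 0.15 turned to -0.097 without the first combination tumour. Genes of cytosolic ribosomal proteins had 21 of 24 below the sum by a small amount, 0 of them at an unadjusted p under 0.05. Their median was -0.14, with Rps14, Rpl5 and Rps19 at -0.33, -0.33 and -0.33. Mitochondrially encoded genes had 9 of 10 above the sum, 0 of them at an unadjusted p under 0.05, with a median of 0.17. mt-Atp6 was at 0.91 ± 0.58, mt-Nd6 at 0.59 ± 0.44 and mt-Cytb at 0.30 ± 0.30. The mt-Atp6 level was low, from 0.503 CPM to 2.06 CPM, the latter in the first vehicle tumour. Levels of mt-Nd6 were 3.06 to 10.5 CPM and those of mt-Cytb 1706 to 3084 CPM. Nuclear genes of oxidative phosphorylation had 20 of 23 above the sum, 1 of them at an unadjusted p under 0.05, with a median of 0.087. Cox5a was at 0.48 ± 0.18, Cox5b at 0.28 ± 0.17 and Ndufa4 at 0.44 ± 0.27. Without the 2 tumours of high neutrophil score the medians turned to -0.11 for the mitochondrially encoded list and -0.035 for the nuclear one.

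Of the 45 lists, 19 had a median interaction of the same sign in every alternative setting tried, 13 above the sum and 6 below it. Those above it included the type I interferon, G2/M, replication, chemokine, nucleic acid sensing, DNA damage, endothelial and immediate early lists. The 6 below it were the E-box clock, glucocorticoid, chromatin, anergy ligase, PI3-kinase and FoxO, and ribosomal protein lists. The T-cell, NK-cell, cytotoxic, interferon-gamma, fibroblast and neutrophil lists were among those that changed sign. Members of a list share the 12 tumours and are not independent, so the counts describe these tumours.

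**Figure D5:**
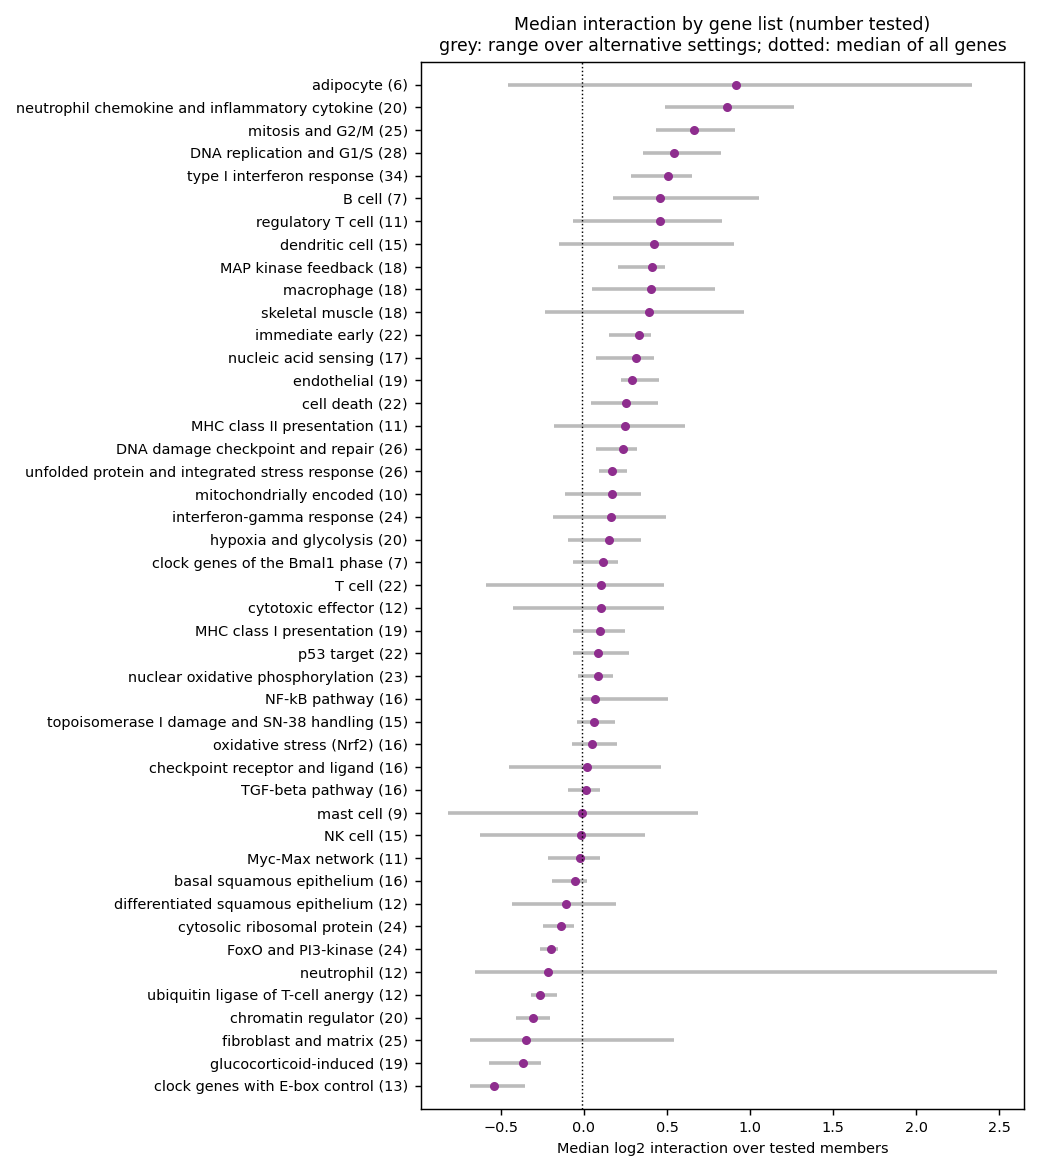
Median log2 interaction over the tested members of each of 45 gene lists (points; number of tested members in brackets), with the range of that median over the alternative settings (grey) and the median of all genes (dotted). The G2/M, replication, chemokine and type I interferon ranges lie above 0 and the clock, glucocorticoid and chromatin ranges below it, whereas the T-cell, fibroblast and neutrophil ranges cross it.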

How the data were processed

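Gene counts were used for 12 tumours, 3 per group. The deposited values were raw counts per gene, not normalized by the authors. Per the submitters' processing notes, reads were handled with cutadapt 2.4, STAR 2.7.2a and GRCm38. The counter, its strand setting and the annotation release are not given in the sources used here, so overlapping genes and near-identical families are uncertain. Libraries were prepared with a stranded mRNA kit, per the labels' protocols.

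Identifiers were matched to GENCODE M21 symbols (54409 of 54446). Genes were filtered with filterByExpr and scaled with TMM factors of 0.970 to 1.026. At least 99.9% of counts were kept. The interaction was tested with edgeR's quasi-likelihood test on a mean per group, with Benjamini-Hochberg adjustment over 16833 genes. Software was R 4.3.3 with edgeR 4.0.16, limma 3.58.1 and DESeq2 1.42.0. Single changes are from the same fit. The code was tested on simulated data. No pair of tumours within a group agreed within counting noise (lowest chi-square 11.8 per degree of freedom).

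The comparison, the 45 lists and the fixed genes were chosen with earlier results of these data known. Named genes were of 3 kinds. The first were the 12 of smallest p on each side of the sum among protein-coding genes whose log2 CPM averaged 1 or more. The others were the 3 of smallest p in each list and the fixed genes, with no limit on type or level. Other list members were named after their values were seen, as examples. A few genes that the rule covers are not reported here.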

Additional observations from a re-analysis of the deposited data

How the results depend on the processing

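edgeR gave 0 calls under every setting tried with it, including other scalings, no filter on low counts (lowest adjusted p 0.0633) and each tumour left out, and limma voom gave 0. DESeq2 gave 16, 1 above and 15 below the sum. Without 1 tumour at a time, genes at an unadjusted p under 0.05 numbered 820 (without the first anti-PD1 tumour) to 1838 (without the third), 317 to 1057 above the sum and 453 to 1079 below it. Without the second vehicle tumour there were 835. Correlations of same-numbered tumours' deviations, 18 in all, ran from -0.47 to 0.63, and 4 were over 0.1. The highest was between the third anti-PD1 and the third combination tumours. Deviations from means of 3 tumours give such correlations a wide spread, so they cannot settle whether the replicate numbers mark pairs. With the replicate block there were 0 calls and 1341 genes at an unadjusted p under 0.05, 704 of them below the sum. An exonic-length offset was added after the data were seen.

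Of 162 named genes, 140 kept the sign of their interaction in every setting. Most of the 162 were chosen for a small interaction p in these data, and the settings share tumours. A kept sign is therefore no independent support. With single tumours left out, the ranges of those that crossed 0 were Cd28 -0.18 to 1.22, Tbx21 -0.11 to 1.18, Cd160 -1.66 to 0.085, Mmp9 -1.07 to 0.23, Il1r2 -0.90 to 0.43, Sparc -1.22 to 0.22, Dcn -1.34 to 0.54, Krt10 -3.68 to 0.43, Cfd -0.98 to 3.73, Adipoq -0.15 to 3.28, Car3 -0.058 to 1.07, Kit -0.82 to 0.36, Tpsb2 -0.62 to 0.75, Fcer1a -1.26 to 0.49, Cd274 -0.72 to 0.25, Pdcd1 -0.60 to 0.44, Cd8a -0.44 to 0.019, Ifng -0.14 to 0.90, Ncr1 -0.34 to 1.54, H2-K1 -0.078 to 0.15. Without the first SN-38 and second combination tumours (high neutrophil score), signs turned for Mmp9 (0.53), Il1r2 (0.15), Kit (0.087), Fcer1a (0.72), mt-Cytb (-0.13), Cd274 (0.44), Cd8a (0.0031) and Gzmb (0.14). Without the third anti-PD1 and the third combination tumours they turned for Tpsb2 (-0.030), Pdcd1 (-0.30) and H2-K1 (-0.0014). H2-K1 also turned with the length offset (-0.026), and Il1r2 on the linear CPM scale (0.725 CPM). Apart from the left-out tumours, the cause of these changes was not tested.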
